A study of Mus musculus with 6 samples.

Results

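The voltage-gated sodium and calcium channel subunit genes were examined in the cochlear duct of the mouse at postnatal day 8. Members were the listed genes whose symbol reads Scn, a number and a or b, or starts with Cacna, Cacnb or Cacng, except Cacna1d and Cacnb2. This gave 27 of 14865 listed genes, 10 for sodium channels and 17 for calcium channels. The symbol rule misses Scn2a1, the older name of another sodium channel gene. Wild-type mice (Gfi1+/+) and mice with Cre recombinase in place of 1 copy of Gfi1 (Gfi1cre/+), labelled as strain C57BL/6, gave 3 RNA-seq libraries each. Each Gfi1+/+ library held both cochleae of 1 mouse and each Gfi1cre/+ library pooled 6 cochleae of 3 mice, so the replicates of Gfi1cre/+ are averages over animals. Gfi1 is a transcription factor of hair cells (HCs), and the study compared the genotypes to find early changes that go with the loss of 1 functional copy. The p-values below measure the spread between these libraries.

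Voltage-gated channels open when the membrane is depolarized. A sodium channel consists of a large pore-forming alpha subunit and single-pass beta subunits, and it carries the upstroke of the action potential in nerve and muscle. Most types of calcium channel consist of a pore-forming alpha1 subunit with an extracellular alpha2delta and an intracellular beta subunit. Calcium channels couple depolarization to transmitter release, contraction and gene expression. Inner HCs release transmitter through channels built on Cacna1d with Cacnb2, the pair left out here, whereas spiral ganglion neurons fire sodium action potentials along their axons. Most genes named Cacng, including the 3 members here, are better known as auxiliary subunits of AMPA-type glutamate receptors.

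The deposited values are read counts divided by a size factor for each library and are called normalized reads below. Each library held between 13603908 and 19359753 reads on genes. The members rested on between 5 reads, for Scn9a, and 2562 reads, for Cacnb3, in a library. Gfi1 itself had between 147 and 160 normalized reads in Gfi1+/+ and between 130 and 139 in Gfi1cre/+. The study states that what remains of the transcript on the Cre allele still counts towards Gfi1, so these reads do not measure functional Gfi1. By RT-qPCR in newborn cochleae it found less of the exons that Cre replaces. The summed level of 4 genes of the Y chromosome was at most 2.10 normalized reads in Gfi1+/+ and between 794 and 1621 in Gfi1cre/+, so sex and genotype cannot be told apart in any value below. Gfi1+/+ replicate 1 stood apart in many of its neuronal genes. The summed level of 20 neuron markers was 24304 normalized reads there and between 13403 and 18340 in the other 5 libraries, with all 20 markers listed. Elavl4, Scg2, Calb2, Pvalb, Gata3 and Slc17a7 were higher in Gfi1+/+ replicate 2 than in replicate 1, and the other neuron markers were highest in replicate 1. Summed HC markers were between 10784 and 12327 in all 6 libraries, with all 14 listed. Of 14 skeletal muscle markers 5 were listed, with sums between 374 and 506. Summed Schwann cell markers were 67064 in Gfi1+/+ replicate 1 and between 42459 and 57036 elsewhere, and vascular smooth muscle markers were between 7439 and 8538. Of the Schwann cell list, Mbp, a myelin gene of both the central and the peripheral nervous system, had 18871 normalized reads in Gfi1+/+ replicate 1 and between 2508 and 4216 elsewhere. In a bulk sample fewer cells of a type and less RNA per cell cannot be told apart.

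The neurofilament gene Nefm, a marker of neuronal axons, varied closely with 7 members over libraries, and 3 of these have a start site in RefSeq (GRCm38.p6) whose upstream sequence lies outside the annotated gene. These sequences are shown because all 3 genes were highest in Gfi1+/+ replicate 1, as Nefm was. Without that library r with Nefm was 0.99 for Scn1a, 0.60 for Cacna1b and 0.15 for Cacna2d3. Each run holds the 240 bases from 250 to 11 bases before the start, read 5′ to 3′ on the strand of the gene, with CG dinucleotides in capitals. The positions are chr2:66440848-66441087 for Scn1a, chr2:24763163-24763402 for Cacna1b and chr14:29721875-29722114 for Cacna2d3, all on the minus strand.
Scn1a: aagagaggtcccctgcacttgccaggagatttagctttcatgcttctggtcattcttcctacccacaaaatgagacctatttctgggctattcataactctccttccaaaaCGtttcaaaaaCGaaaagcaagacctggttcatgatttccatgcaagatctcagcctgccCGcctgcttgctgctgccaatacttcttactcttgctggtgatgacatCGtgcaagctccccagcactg
Cacna1b: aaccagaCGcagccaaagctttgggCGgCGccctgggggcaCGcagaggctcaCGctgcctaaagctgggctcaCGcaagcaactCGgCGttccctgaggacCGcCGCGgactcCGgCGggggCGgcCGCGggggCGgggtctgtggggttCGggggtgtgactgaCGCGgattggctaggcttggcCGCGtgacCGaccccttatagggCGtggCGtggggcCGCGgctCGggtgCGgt
Cacna2d3: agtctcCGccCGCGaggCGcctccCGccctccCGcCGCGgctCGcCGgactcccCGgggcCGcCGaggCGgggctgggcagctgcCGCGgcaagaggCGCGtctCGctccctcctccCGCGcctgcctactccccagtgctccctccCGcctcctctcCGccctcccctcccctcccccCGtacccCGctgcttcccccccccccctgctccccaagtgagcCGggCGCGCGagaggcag

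The sequences differed in their CG content. The Scn1a sequence held 4 CG dinucleotides, close to the median of 5 over 32851 RefSeq start sites, whereas those of Cacna1b and Cacna2d3 held 29 each, more than 94.2% of start sites. RefSeq gave 26 start sites for 18 of the 27 members. The letters TATAAA were in none of the 26 on either strand and in 12.1% of all start sites. The repressor REST silences many neuronal genes outside neurons through a site made of the parts TTCAGCACC and GGACAGC. The former was in no member sequence and in 0.298% of all start sites, and the latter was in 1, that of Cacnb1, and in 5.08% of all. The GC box GGGCGG was in 10 of the 26 and in 31.3% of all, with 3 copies in Cacna1b, 3 in Cacna2d3 and none in Scn1a. No motif contains another. A match or its absence in this window says nothing about binding.

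Levels were compared between genes as normalized reads per kb of annotated exon (GENCODE annotation of GRCm38), averaged over the 6 libraries. They spanned a factor of 601, from 0.864 for Scn9a to 520 for Cacnb3. There were 6 members above 100 reads per kb, 11 between 10 and 100, and 10 under 10. Among those above 100 were Cacnb3, Cacng4 (379), Cacna1g (134) and Cacna2d2 (129). Over libraries Cacnb3 ranged from 478 to 564 and Cacng4 from 318 to 471, so these genes did not overlap with each other or with the rest. By contrast, Cacna1g ranged from 123 to 151 and Cacna2d2 from 123 to 136, so their order is within their spread. The mean level of Cacnb3 exceeded that of 87.9% of the listed genes and that of Cacna1g exceeded 56.8%.

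**Figure D1:**
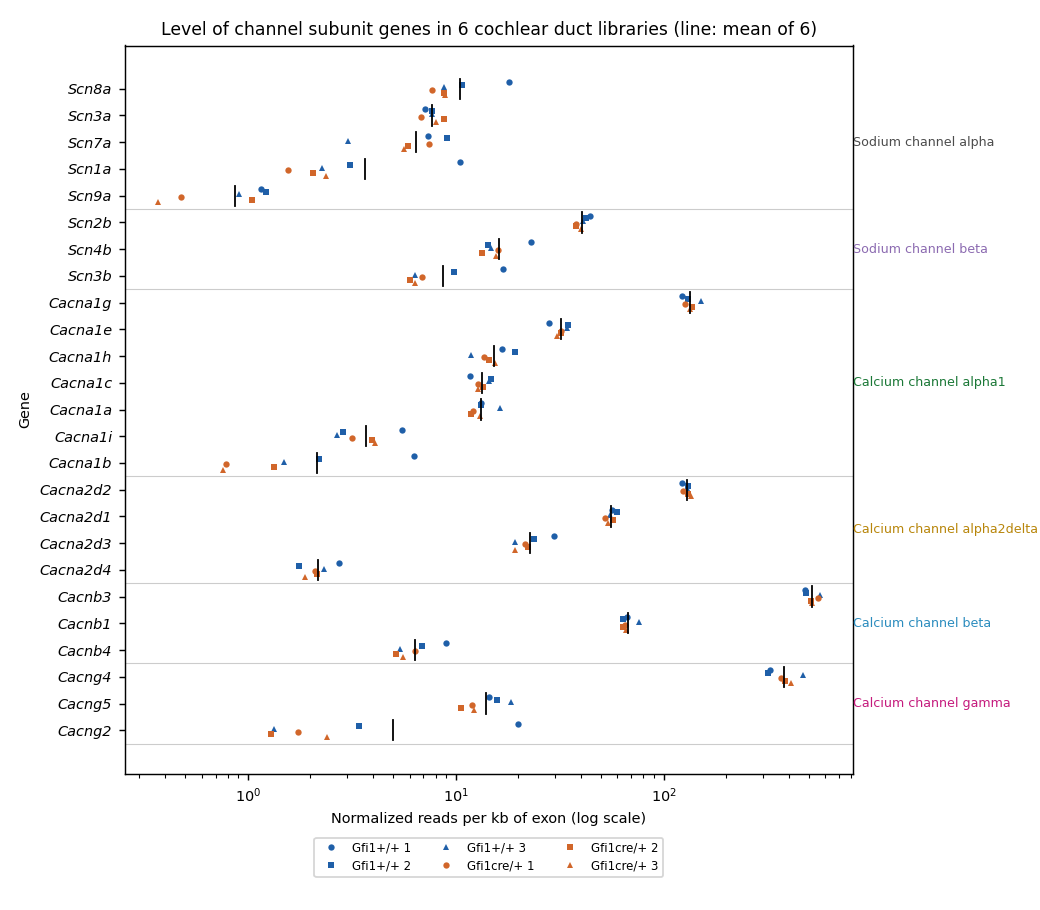
Normalized reads per kb of exon (log axis) of 25 channel subunit genes, grouped by role, with 1 point per library (blue, Gfi1+/+; orange, Gfi1cre/+; circle, square and triangle, replicates 1, 2 and 3) and a line at the mean of 6. Cacnb3, Cacng4, Cacna1g and Cacna2d2 lie above 100 reads per kb, and the widest spreads are those of low genes such as Cacng2 and Scn1a, whose Gfi1+/+ replicate 1 lies far to the right.

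Among the 6 sodium channel alpha subunits, Scn8a, the main one of mature axon initial segments and nodes of Ranvier, had 10.5 reads per kb. In order of replicates 1 to 3, Scn8a (chromosome 15, 100869858 to 101045938) had 285, 170 and 138 normalized reads in Gfi1+/+ and 122, 138 and 140 in Gfi1cre/+. Gfi1+/+ replicates 1 and 2 were highest, and replicate 3 lay within the range of Gfi1cre/+. Scn3a, an alpha subunit of immature neurons, had 7.71 reads per kb and varied little, between 85.3 and 110 normalized reads. Scn7a, which encodes a sodium sensor rather than a voltage-gated pore, had 6.44 reads per kb and between 22.2 and 67.0 normalized reads. Scn1a (chromosome 2, 66270778 to 66440840), a neuronal alpha subunit, had 3.65 reads per kb. Its normalized reads were 117, 34.6 and 25.3 in Gfi1+/+ and 17.4, 23.1 and 26.4 in Gfi1cre/+, so replicate 1 of Gfi1+/+ stood far above the rest and the genotypes overlapped. Scn9a, best known from pain-sensing neurons, had between 4.72 and 15.7 normalized reads and was under the minimum for testing.

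Of the alpha subunit members 4 lie on chromosome 2, as does Scn2a1, which the symbol rule misses. Scn1a, Scn9a and Scn7a follow each other with gaps of 39.2 and 38.5 kb, and Scn3a lies 703 kb from Scn1a. The level in Gfi1+/+ replicate 1 relative to the other libraries differed between these 4 members, and Scn9a rested on between 5 and 15 reads. Gfi1+/+ replicate 1 was 4.62 times the mean of the other 5 libraries in Scn1a, 1.44 times in Scn9a, 1.19 times in Scn7a and 0.911 times in Scn3a. Scn2b and Scn4b, on chromosome 9, are 8.32 kb apart, and Cacng4 and Cacng5, on chromosome 11, are 80.0 kb apart.

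The sodium channel beta subunits are adhesion-like proteins that modulate gating and surface expression. Scn2b, whose product is linked to the alpha subunit by a disulfide bond, had 40.7 reads per kb. For Scn2b (chromosome 9, 45117782 to 45130070) the values were 206, 198 and 191 in Gfi1+/+ and 178, 178 and 186 in Gfi1cre/+. Every Gfi1cre/+ library lay below every Gfi1+/+ library, by a small margin. Scn4b, whose product can plug the open pore, had 16.2 reads per kb, and Scn3b had 8.73. Both were highest in Gfi1+/+ replicate 1, where Scn4b had 115 and Scn3b 92.6 normalized reads, against between 66.6 and 80.1 and between 32.8 and 53.4 in the other libraries.

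Of the 7 calcium channel alpha1 subunits, Cacna1g, a T-type channel that opens near the resting potential, took between 60.2% and 65.2% of their summed level per kb. Cacna1g (chromosome 11, 94408391 to 94474198) had 1249, 1332 and 1535 normalized reads in Gfi1+/+ and 1279, 1387 and 1354 in Gfi1cre/+, with overlap. The other T-type genes were lower, with 15.2 reads per kb for Cacna1h and 3.72 for Cacna1i. Cacna1e, the R-type channel, followed Cacna1g with 32.0 reads per kb. Cacna1e (chromosome 1, 154390731 to 154884501) had 707, 874 and 863 normalized reads in Gfi1+/+ and 807, 813 and 773 in Gfi1cre/+, and Gfi1+/+ replicate 1 was the lowest library. Cacna1c, the L-type channel of heart and smooth muscle, had 13.4 reads per kb and Cacna1a, the P/Q-type channel of many synapses, had 13.3. In Cacna1a every Gfi1cre/+ library, between 136 and 149 normalized reads, lay below every Gfi1+/+ library, between 151 and 186. Cacna1b (chromosome 2, 24603887 to 24763152), the N-type channel of presynaptic terminals, was the lowest at 2.15 reads per kb. It had 63.0, 22.0 and 14.8 normalized reads in Gfi1+/+ and 7.83, 13.3 and 7.55 in Gfi1cre/+, without overlap between genotypes.

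The alpha2delta subunits bring the channel to the membrane. Cacna2d2 led with between 58.0% and 64.3% of their summed level per kb, and Cacna2d1, a receptor for gabapentin, followed with 55.8 reads per kb. Cacna2d2 (chromosome 9, 107399612 to 107529343) had 978, 1045 and 1033 normalized reads in Gfi1+/+ and 986, 1043 and 1081 in Gfi1cre/+. For Cacna2d1 (chromosome 5, 15934691 to 16374511) they were 700, 739 and 682 in Gfi1+/+ and 649, 710 and 675 in Gfi1cre/+. Both genes overlapped between genotypes and were among the steadiest members. Cacna2d3 had 22.7 reads per kb, with 260 normalized reads in Gfi1+/+ replicate 1 and between 168 and 207 elsewhere. Cacna2d4, known from photoreceptors, had between 16.8 and 25.9 normalized reads and was under the minimum for testing.

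The beta subunits bind the alpha1 subunit inside the cell. Cacnb3 (chromosome 15, 98630840 to 98644529) took between 86.3% and 88.6% of the summed level per kb of Cacnb1, Cacnb3 and Cacnb4. It had 1918, 1948 and 2262 normalized reads in Gfi1+/+ and 2230, 2065 and 2080 in Gfi1cre/+, with overlap. Cacnb1 (chromosome 11, 98001508 to 98023034), which also serves skeletal muscle, had 304, 290 and 347 normalized reads in Gfi1+/+ and 295, 289 and 299 in Gfi1cre/+. Gfi1+/+ replicate 3 was the highest and the other 5 libraries lay close together. Cacnb4, a beta subunit of the brain, had 6.40 reads per kb and between 46.2 and 80.2 normalized reads. Its exons share 16.0% of their length with a gene on the other strand, A430018G15Rik, and the strand setting of the counting was not given in the sources used here. Such an overlap was present in 7 members, among them Cacng2 (5.86%) and Cacna1a (3.81%).

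The 3 genes named as gamma subunits ranged widely. Cacng4 (chromosome 11, 107732357 to 107794557) took at least 90.5% of their summed level per kb in each library. It had 1169, 1137 and 1682 normalized reads in Gfi1+/+ and 1306, 1372 and 1463 in Gfi1cre/+, so the Gfi1+/+ libraries spanned the whole range. Cacng5 (chromosome 11, 107874605 to 107915055) had 55.6, 60.7 and 70.7 normalized reads in Gfi1+/+ and 46.1, 40.8 and 47.2 in Gfi1cre/+, without overlap. Cacng2 (chromosome 15, 77991748 to 78120028), the stargazin gene, had 110, 18.9 and 7.38 normalized reads in Gfi1+/+ and 9.57, 7.10 and 13.2 in Gfi1cre/+. Gfi1+/+ replicate 1 stood far above the other libraries, and the genotypes overlapped with or without that library.

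Nefm encodes a subunit of the neurofilaments of axons. It had 3449, 712 and 378 normalized reads in Gfi1+/+ and 178, 315 and 499 in Gfi1cre/+, so that Gfi1+/+ replicate 1 held 8.28 times the mean of the other 5 libraries. The relation of each member to Nefm was measured over the 6 libraries as Pearson's r of log2(normalized reads + 1). Across the 27 members r was at least 0.8 in 7 genes, all 7 among the 25 tested, against 6.48% of 14454 tested genes. None was at or below -0.8, against 4.93% of those genes. The median r was 0.50 over the members and 0.01 over the genes tested. The 7 were Scn1a, Scn8a, Cacng2, Scn3b, Cacna1b, Scn2b and Cacna2d3, which include sodium channel alpha and beta subunits, the N-type calcium channel and stargazin. Scn1a, Cacng2 and Cacna1b reached the minimum for testing only in Gfi1+/+ replicate 1, where Nefm was highest, so this count is a description. The 7 genes were mostly of low abundance, between 2.15 and 40.7 reads per kb, and none of the members above 100 reads per kb was among them.

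Scn1a had the closest relation to Nefm, with the same order of libraries in both genes. Its r was 0.99, with a two-sided exact permutation p over 6 libraries of 0.00139, the smallest possible, and an adjusted p of 0.300 by Benjamini-Hochberg over the 14454 tested genes. Its Spearman's rho was 1.0 (exact permutation p = 0.00278, adjusted p = 0.490). Scn8a followed with an r of 0.98 (exact permutation p = 0.00278, adjusted p = 0.375) and a rho of 0.94 (exact permutation p = 0.0167, adjusted p = 0.739). For Cacng2 r was 0.94 (exact permutation p = 0.0181, adjusted p = 0.451) and rho was 0.83 (exact permutation p = 0.0583, adjusted p = 0.764). Scn2b combined an r of 0.90 (exact permutation p = 0.00556, adjusted p = 0.390) with a rho of 0.89 (exact permutation p = 0.0333, adjusted p = 0.764). Scn3b and Cacna1b had a higher r, 0.92 and 0.91, but a rho of 0.66 in both genes, and Cacna2d3 had an r of 0.81 and a rho of 0.54. At an unadjusted exact permutation p under 0.05 there were 7 members by r, which include Cacnb3 with a negative r, against 9.33% of the tested genes, and 3 by rho, against 3.92%. None had an adjusted p under 0.05, and neither did any other tested gene.

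Part of this rested on Gfi1+/+ replicate 1. Nefm was farthest from its median in Gfi1+/+ replicate 1 and Gfi1cre/+ replicate 1, and r was computed again over the other 4 libraries. It then was 0.96 for Scn1a, 0.87 for Scn8a, 0.98 for Cacng2, 0.89 for Scn3b and 0.82 for Scn2b, so that 5 of the 7 stayed at or above 0.8. It was 0.34 for Cacna1b and 0.38 for Cacna2d3, so that the relation of these genes to Nefm rested on the libraries left out. The part of the neuronal and myelin genes of Gfi1+/+ replicate 1 in these values was not tested. Over 4 libraries 6 of the 27 members were at or above 0.8, and so were 13.9% of the tested genes. Without Gfi1+/+ replicate 1 alone, r was 0.99 for Scn1a, 0.92 for Scn8a and 0.84 for Scn2b, and 0.68 or less for the other 4.

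The sizes of these differences were unequal. Gfi1+/+ replicate 1 held 9.79 times the mean of the other 5 libraries in Cacng2, 4.81 times in Cacna1b, 4.62 times in Scn1a, 2.39 times in Scn3b, 2.01 times in Scn8a, 1.41 times in Cacna2d3 and 1.11 times in Scn2b. Thus Scn2b had a high r with a small difference in level. Of the 25 tested members 11 were highest of all libraries in Gfi1+/+ replicate 1, against 24.9% of the tested genes, and 6 were lowest there, against 23.5%. At the other end, Cacnb3 (r = -0.79, exact permutation p = 0.0347, adjusted p = 0.503) and Cacna1e (r = -0.63) were among the 3 members with the lowest r. Their levels in Gfi1+/+ replicate 1 were 0.906 and 0.856 times the mean of the other libraries, and over the 4 middle libraries r was -0.64 and 0.28.

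**Figure D2:**
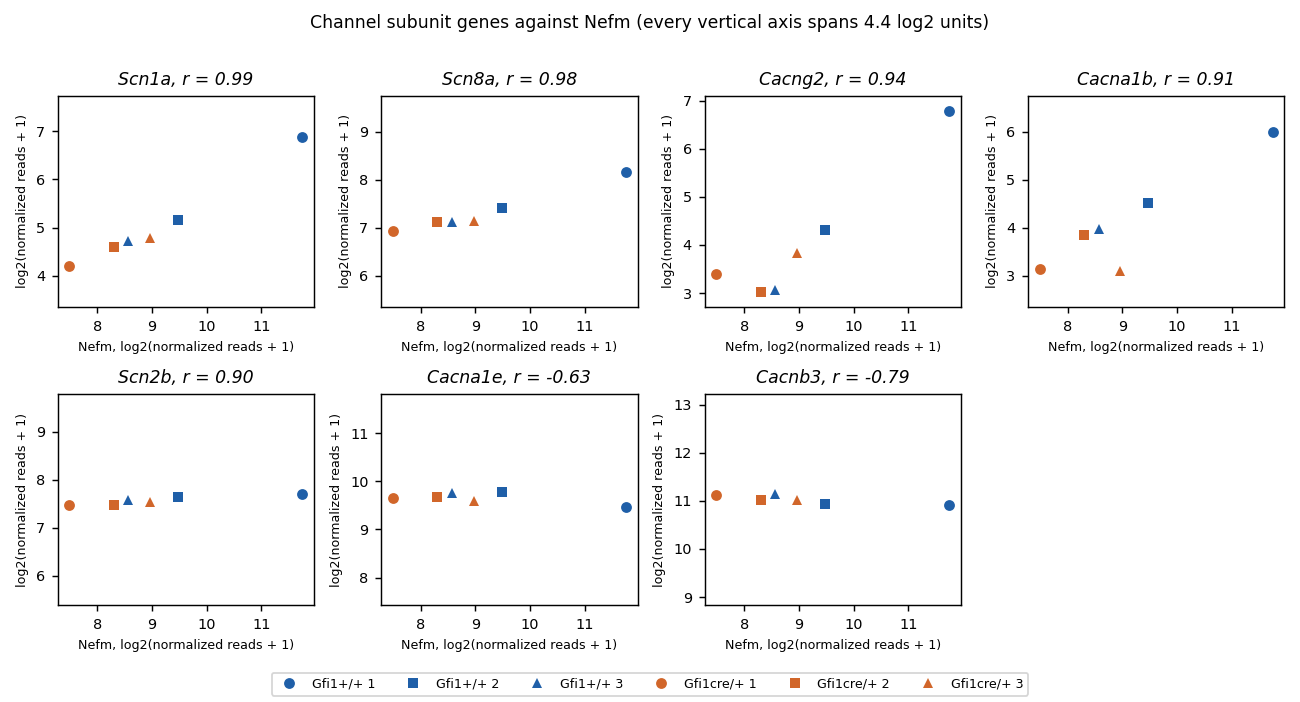
Log2(normalized reads + 1) of 7 channel subunit genes against that of Nefm, 1 point per library (blue, Gfi1+/+; orange, Gfi1cre/+; circle, square and triangle, replicates 1, 2 and 3). The point at the right of every panel is Gfi1+/+ replicate 1, where Scn1a, Scn8a, Cacng2 and Cacna1b are far above their other libraries and Cacna1e and Cacnb3 are slightly below.

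**Figure D3:**
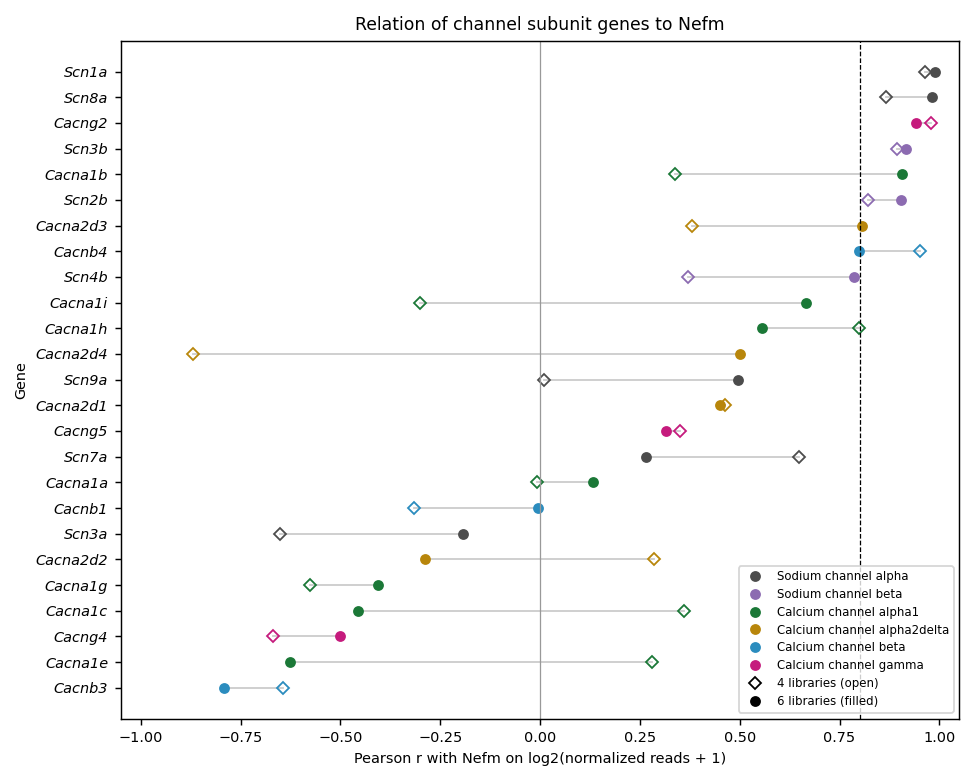
Pearson r with Nefm of 25 channel subunit genes over 6 libraries (filled circles) and over the 4 libraries nearest the median of Nefm (open diamonds), coloured by role, with a dashed line at 0.8. Scn1a, Scn8a, Cacng2, Scn3b and Scn2b stay to the right of the line in both, whereas Cacna1b and Cacna2d3 move to 0.34 and 0.38.

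Gfi1cre/+ was compared with Gfi1+/+ by limma on log2(normalized reads + 1) over the 14455 genes that reached 40 normalized reads in any library. These included 25 members, without Scn9a and Cacna2d4. No member had an adjusted p-value under 0.05, against 0.0277% of the tested genes, which is 4 genes. At an unadjusted p-value under 0.05, 2 members were lower in Gfi1cre/+, against 2.02% of the tested genes, and none was higher, against 1.02%. These were Cacna1b and Cacng5. Cacna1b, Cacng2 and Scn1a reached the minimum only in Gfi1+/+ replicate 1, so counts and medians over the tested members are descriptions. edgeR's quasi-likelihood test and DESeq2 on the recovered reads likewise gave no member at an adjusted p-value under 0.05 and 5 lower members each at an unadjusted one, against 2.51% and 2.01% of the tested genes. Both tools gave Cacna1b, Cacng2, Scn1a and Scn8a, with Cacng5 as the other in edgeR and Scn3b in DESeq2.

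Cacna1b had 9.57 ± 3.25 normalized reads in Gfi1cre/+ and 33.2 ± 26.0 in Gfi1+/+ (SD, n = 3). Its log2 fold change on the log2(normalized reads + 1) scale was -1.47 (standard error 0.571), with an adjusted p of 0.999 from limma with Benjamini-Hochberg adjustment. Without Gfi1+/+ replicate 1 it was -0.89 and no longer passed the unadjusted threshold, and the same held without Gfi1cre/+ replicate 1 (-1.37) or 3 (-1.34). Cacng5 had 44.7 ± 3.40 normalized reads in Gfi1cre/+ and 62.3 ± 7.68 in Gfi1+/+ (SD, n = 3), with a log2 fold change of -0.47 (standard error 0.182) and an adjusted p of 0.999 from limma. It ranged from -0.54 to -0.37 with each library left out, and of these fits only the one without Gfi1+/+ replicate 1 kept it under the unadjusted threshold. It also missed that threshold with DESeq2, with quantile normalization and with the replicate block. Both genes rested on few reads, with between 8 and 51 in a library for Cacna1b and between 45 and 67 for Cacng5.

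Other members related to Nefm had differences larger than that of Cacng5. The log2 fold change was -1.31 for Cacng2 (standard error 0.837), -1.06 for Scn1a (0.509), -0.66 for Scn3b (0.326) and -0.50 for Scn8a (0.228), each with an adjusted p-value of 0.999 from limma. For Cacng2 it was -2.14 with edgeR and -2.18 with DESeq2 (adjusted p = 0.611 from DESeq2). The spread was larger in Gfi1+/+ than in Gfi1cre/+. Scn1a had 59.0 ± 50.6 normalized reads in Gfi1+/+ and 22.3 ± 4.55 in Gfi1cre/+ (SD, n = 3), and Scn8a had 198 ± 77.4 and 133 ± 9.95. Without Gfi1+/+ replicate 1 the log2 fold change was -0.41 for Scn1a, -0.27 for Cacng2 and -0.20 for Scn8a. Nefm itself had a log2 fold change of -1.68 (standard error 0.695, adjusted p = 0.999 from limma). With the level of Nefm as a covariate the log2 fold changes became 0.02 for Scn1a, 0.38 for Cacng2, -0.0046 for Scn8a, -0.09 for Scn3b and -0.59 for Cacna1b, whereas that of Cacng5 was -0.60, each with an adjusted p of 0.999 from limma. Except for Cacng5, these genes had a high r with Nefm over the same libraries, and Nefm was itself lower in Gfi1cre/+. The covariate therefore takes up much of their difference by construction, and this fit cannot separate genotype from the level of Nefm.

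Among the 25 tested members, 4 were such that every Gfi1cre/+ library was below every Gfi1+/+ library, against 4.07% of the tested genes, and none was such that every one was above, against 3.45%. These were Cacna1a, Cacna1b, Cacng5 and Scn2b. With 3 libraries against 3 the exact permutation test cannot go below p = 0.1, two-sided, which each of these genes reached. Cacna1a had a log2 fold change of -0.20 (standard error 0.115) and Scn2b one of -0.14 (0.0853). Of the 25 tested members 18 had a log2 fold change below 0, against 50.1% of the tested genes, and the median was -0.10 over the members and -1.2e-04 over the genes tested. By role, the log2 fold change was below 0 in 2 of 5 sodium channel alpha subunits, 4 of 4 sodium channel beta subunits, 6 of 7 alpha1 subunits, and 2 of 3 in each of the alpha2delta, calcium channel beta and gamma subunits. The log2 fold changes of the neuron markers had 19 of 20 below 0, a median of -0.76 and 8 at an unadjusted p-value under 0.05, against the same 2.02% of the tested genes. Of these markers Prph and Rbfox3 reached the minimum for testing only in Gfi1+/+ replicate 1, so these values are descriptions. The HC markers had 12 of 14 below 0 with a median of -0.12. The part of either in the values of the members was not tested.

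Cacnb3, Cacng4, Cacna1g and Cacna2d2, all above 100 reads per kb, differed little between genotypes. The log2 fold changes were 0.06 for Cacnb3 (standard error 0.0730), 0.08 for Cacng4 (0.134), -0.03 for Cacna1g (0.0794) and 0.03 for Cacna2d2 (0.0597). In 18 of the 25 tested members the absolute log2 fold change was under 0.2. Other values depended on Gfi1+/+ replicate 3. Without it Cacng4 had a log2 fold change of 0.26 and Cacnb3 one of 0.14, and 7 members were lower and 2 higher at an unadjusted p-value under 0.05, against 8.7% and 7.49% of the tested genes.

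**Figure D4:**
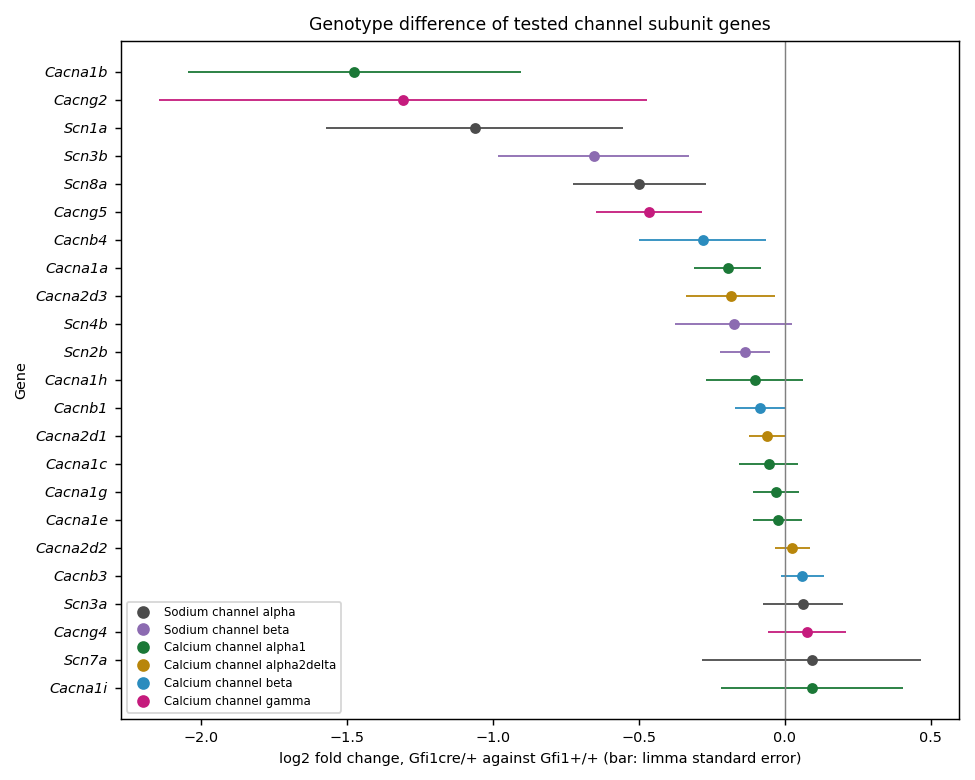
Log2 fold change of Gfi1cre/+ against Gfi1+/+ on the log2(normalized reads + 1) scale for 23 tested genes, with limma's standard error as bars and colours for roles. Cacna1b, Cacng2, Scn1a, Scn3b, Scn8a and Cacng5 lie farthest to the left, and the other 17 genes lie between -0.28 and 0.09.

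Proteins that anchor or modulate these channels were followed in lists written from general knowledge. Of 16 sodium channel partners, which include the ankyrin and spectrin scaffold and the fibroblast growth factor homologous factors, all were tested. Among them 1 was lower at an unadjusted p-value under 0.05 and none was higher, against 2.02% and 1.02% of the tested genes. This was Cntnap1, an axonal protein of the junctions beside the node of Ranvier, with a log2 fold change of -0.26 (standard error 0.113). Of 20 calcium channel partners 15 were tested, and 1 was lower and none higher, against the same shares. This was Stac2, an adaptor of L-type channels, with a log2 fold change of -0.95 (standard error 0.357) and 97.5, 73.3 and 46.4 normalized reads in Gfi1+/+ against 22.6, 35.5 and 54.7 in Gfi1cre/+. No partner had an adjusted p-value under 0.05. In each list 6 genes had an r of at least 0.8 with Nefm, against 6.48% of the tested genes, among them Cntnap1 (0.92) and Stac2 (0.92), as did 13 of the 19 neuron markers other than Nefm, 4 of 11 Schwann cell markers and 1 of 14 HC markers. Some of these genes reached the minimum for testing only in Gfi1+/+ replicate 1, where Nefm was highest, so these counts are descriptions. A calcium channel partner and the neuron markers Prph and Rbfox3 were among them.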

How the data were processed

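RNA of cochlear ducts from 3 Gfi1+/+ and 3 Gfi1cre/+ samples was sequenced. The authors aligned reads with TopHat to mm10 and counted them per gene with HTSeq, per the labels; versions, annotation and strand setting are not given in the sources used here. The values deposited by the authors are a signal: read counts divided by a library size factor, listed for 14865 genes. Division by the step of each library returned whole reads for 100% of values (tolerance 0.02), and the totals were 13603908 to 19359753 reads; counting error is largest in members with few reads. The methods name quantile normalization, which was tried as an alternative. No column lacked a sample.

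IDs were matched to GENCODE M21 (14791 of 14865) for position and exon length. The 2 genotypes were compared with limma 3.58.1 (trend, R 4.3.3) on log2(value + 1) for 14455 genes that reached 40 normalized reads in any library, with Benjamini-Hochberg adjustment over these genes. Counts recovered from the values were tested with edgeR 4.0.16 and DESeq2 1.42.0. The relation to Nefm used exact permutation over all orders of the libraries, with adjustment over all tested genes in place of the planned one over members. Values in every library were given for members with an unadjusted p under 0.05, the 2 most abundant of each role, and the 3 highest and 3 lowest in r with Nefm; partner genes were named at an unadjusted p under 0.05. Members and lists were chosen with earlier results of these data known. Alternatives were other pseudocounts, filters, scalings and tools, a replicate block, Nefm as a covariate, other forms of the relation to Nefm, and leaving out each library. Of 38 subunit genes known to fit the rule, 10 were not analysed here. Some genes, 2 members among them, entered the fits and counts but are not reported here.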

Additional observations from a re-analysis of the deposited data

How the results depend on the processing

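No member had an adjusted p-value under 0.05 in the main fit, and none did in any alternative, among them the edgeR and DESeq2 tests. The count of members lower at an unadjusted p under 0.05, which was 2, became 1 with a minimum on the mean level, 1 with quantile normalization, and 5 with edgeR or DESeq2, and it ranged from 0 to 7 with 1 library left out. The count of higher members, which was 0, became 1 with Nefm as a covariate, for Cacna1i, and ranged from 0 to 2 with 1 library left out. The 7 lower and 2 higher members were without Gfi1+/+ replicate 3, against 8.7% and 7.49% of the tested genes. For edgeR and DESeq2 the shares lower were 2.51% and 2.01%. For the other alternatives no share of the tested genes is given, so their counts cannot be set against a general rate. With Nefm as a covariate the median log2 fold change of the members was -0.0453, and signs turned for 8 of the 25 tested members, among them Cacnb3 (-0.0465), Cacng4 (-0.0731), Cacng2 (0.38), Scn1a (0.0198), Cacna1h (0.08), Cacna2d3 (0.05) and Scn4b (0.12). Leaving out 1 library turned the sign of small differences, with ranges of -0.0054 to 0.061 for Cacna2d2, -0.024 to 0.26 for Cacng4, -0.12 to 0.0295 for Cacna1e and -0.0942 to 0.0542 for Cacna1g. Members with r of at least 0.8 with Nefm, 7 in the main analysis, were 4 by Spearman's rho, against 4.31% of the tested genes, and between 3 and 9 with 1 library left out. The 3 were without Gfi1+/+ replicate 1, against 4.5%, and the 9 without Gfi1cre/+ replicate 1, against 12.9%. Of 206 log2 fold changes of named members under alternatives, 171 kept direction and side of the threshold, 12 turned sign, 11 passed the threshold newly and 12 lost it. The cause was not tested.

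With the replicate block 1 member, Cacna1b, was lower at an unadjusted p under 0.05, and no share of the tested genes is given for this fit. Deviations from the genotype means correlated at -0.0944, 0.11 and -0.0326 between samples of the same number, replicates 1 to 3. The highest correlations of these Gfi1+/+ replicates with a Gfi1cre/+ sample of another number were 0.15, 0.0455 and 0.0703. With 3 libraries per genotype these values cannot tell whether same-numbered samples share more than a number. Reads limit the low members, which held as few as 5 in a library.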

Other observations

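Scn2a1, the older symbol of a brain sodium channel alpha subunit on chromosome 2, lies outside the symbol rule only by its spelling and was looked at after the member values were seen. It had 119, 80.6 and 41.1 normalized reads in Gfi1+/+ and 45.3, 54.2 and 64.2 in Gfi1cre/+, so the genotypes overlapped and Gfi1+/+ replicate 1 was the highest. Its level was 5.29 reads per kb, between those of Scn7a and Scn1a. Gfi1cre/+ differed from Gfi1+/+ by -0.44 on the log2 scale (standard error 0.341), and limma gave an adjusted p of 0.999. With Nefm it had an r of 0.92 over 6 libraries (exact permutation p = 0.0097), a rho of 0.83, and an r of 0.82 over the 4 libraries nearest the median of Nefm.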
